A study of Mus musculus with 24 samples.

Results

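The transcripts described here encode proteins that neutrophils store in their granules or, for S100a8 and S100a9, in the cytosol. The set holds 10 genes of the 18193 named on the array: Mpo, Elane, Prtn3 and Ctsg, whose products fill the primary (azurophil) granules, and Camp, Ltf, Ngp, Lcn2, S100a8 and S100a9, made later in neutrophil maturation. Every probe set whose only platform symbol is one of these genes was taken, which gave 10 probe sets, 1 for each gene. The genes were picked with earlier results of these arrays in view, namely their differences with IL-4 in both genotypes, so the set was in effect selected on those differences, which are given as values without a test. Tests are given for the responses to the PPARγ agonist Rosiglitazone (RSG), for KO against WT without IL-4, and for the interaction of IL-4 with RSG.

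Bone marrow from the femurs of 6 mice, all labelled C57Bl/6, was grown for 10 days with the macrophage growth factor M-CSF at 20 ng/ml. Mice 1, 2 and 3 were wild-type (WT), and mice 4, 5 and 6 were Stat6-/- animals (KO), from a purchased line that lacks the transcription factor activated by IL-4. Cultures of every mouse were left as control or received IL-4 at 20 ng/ml, each with 1 µM RSG or its DMSO:ethanol vehicle, so that 8 groups of 3 arrays came from 6 animals; ages were not given in the sources used here. Values are log2 ratios of an array to the median of the same probe set over all arrays, which hold no absolute level, so genes are compared by their differences only. The Stat6 probe set lay between 0.71 and 1.14 in WT and between -2.12 and -1.48 in KO.

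Neutrophil granules are filled in sequence. Promyelocytes make the enzymes of the primary granules, myelocytes and later stages make lactoferrin, cathelicidin and lipocalin, and the calprotectin subunits S100a8 and S100a9 accumulate in the cytosol of neutrophils and monocytes. In bone marrow cultures with M-CSF most granulocyte precursors are lost as macrophages grow out, and mature macrophages carry little of these transcripts. C/EBP factors and PU.1 are known regulators of granule genes during myelopoiesis.

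The 250 bases before each RefSeq start (GRCm38.p6) were searched on both strands for the letters AGGAAGT, a PU.1 core. They were also searched for TTGCNNAA, which fixes a C/EBP half-site (TTGC) and a closing AA but not a full pair of half-sites. The last search was for TTC and GAA separated by 4 bases, a spacing bound by STAT6. The PU.1 letters were present in 4 of 4 primary genes and in 1 of 6 later genes, S100a8, against 7.69% of 32851 promoters of the same length. The C/EBP letters were present in 0 of 4 primary genes and in 4 of 6 later genes, Ltf, Ngp, Lcn2 and S100a9, against 9.56% of promoters. The stretches around these matches are shown because the counts differ between both classes, with S100a8 as the exception for PU.1. These counts were not tested, the genes are few, and Elane and Prtn3, both serine protease genes, lie side by side. Matched letters are in capitals, and each stretch is read 5′ to 3′ on the gene's strand, on which S100a8 and Ltf hold the reverse complement of the letters searched. They are at chr11:87793536-87793592 (+) for Mpo, chr10:79886203-79886259 (+) for Elane, chr10:79879548-79879604 (+) for Prtn3, chr14:56102749-56102805 (-) for Ctsg, chr9:111019192-111019249 (+) for Ltf, chr9:110419645-110419702 (+) for Ngp, chr2:32387923-32387980 (-) for Lcn2, chr3:90668874-90668930 (+) for S100a8 and chr3:90695925-90695971 (-) for S100a9.
Mpo: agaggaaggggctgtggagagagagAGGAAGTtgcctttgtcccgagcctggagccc
Elane: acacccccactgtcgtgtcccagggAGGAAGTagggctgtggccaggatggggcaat
Prtn3: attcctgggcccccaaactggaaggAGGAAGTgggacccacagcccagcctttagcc
Ctsg: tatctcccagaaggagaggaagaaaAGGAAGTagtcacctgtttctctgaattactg
Ltf: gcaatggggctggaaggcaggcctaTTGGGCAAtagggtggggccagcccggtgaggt
Ngp: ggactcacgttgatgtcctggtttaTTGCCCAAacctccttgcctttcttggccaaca
Lcn2: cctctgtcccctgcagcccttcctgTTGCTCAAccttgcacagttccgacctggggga
S100a8: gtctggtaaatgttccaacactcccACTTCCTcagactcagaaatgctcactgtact
S100a9: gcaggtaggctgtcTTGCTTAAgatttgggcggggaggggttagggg

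The matches began 223 bases before the start of Mpo, 84 before Elane, 94 before Prtn3, 206 before Ctsg, 75 before Ltf, 138 before Ngp, 216 before Lcn2, 172 before S100a8 and 236 before S100a9, and Ngp held another C/EBP match 11 bases before its start. The STAT6 letters were found in Mpo and Lcn2 only, 2 of 10 genes, against 5.85% of promoters. Camp held none of these letters in its window. Overlaps between the motif searches were allowed, and a match describes letters and not a bound site.

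**Figure D1:**
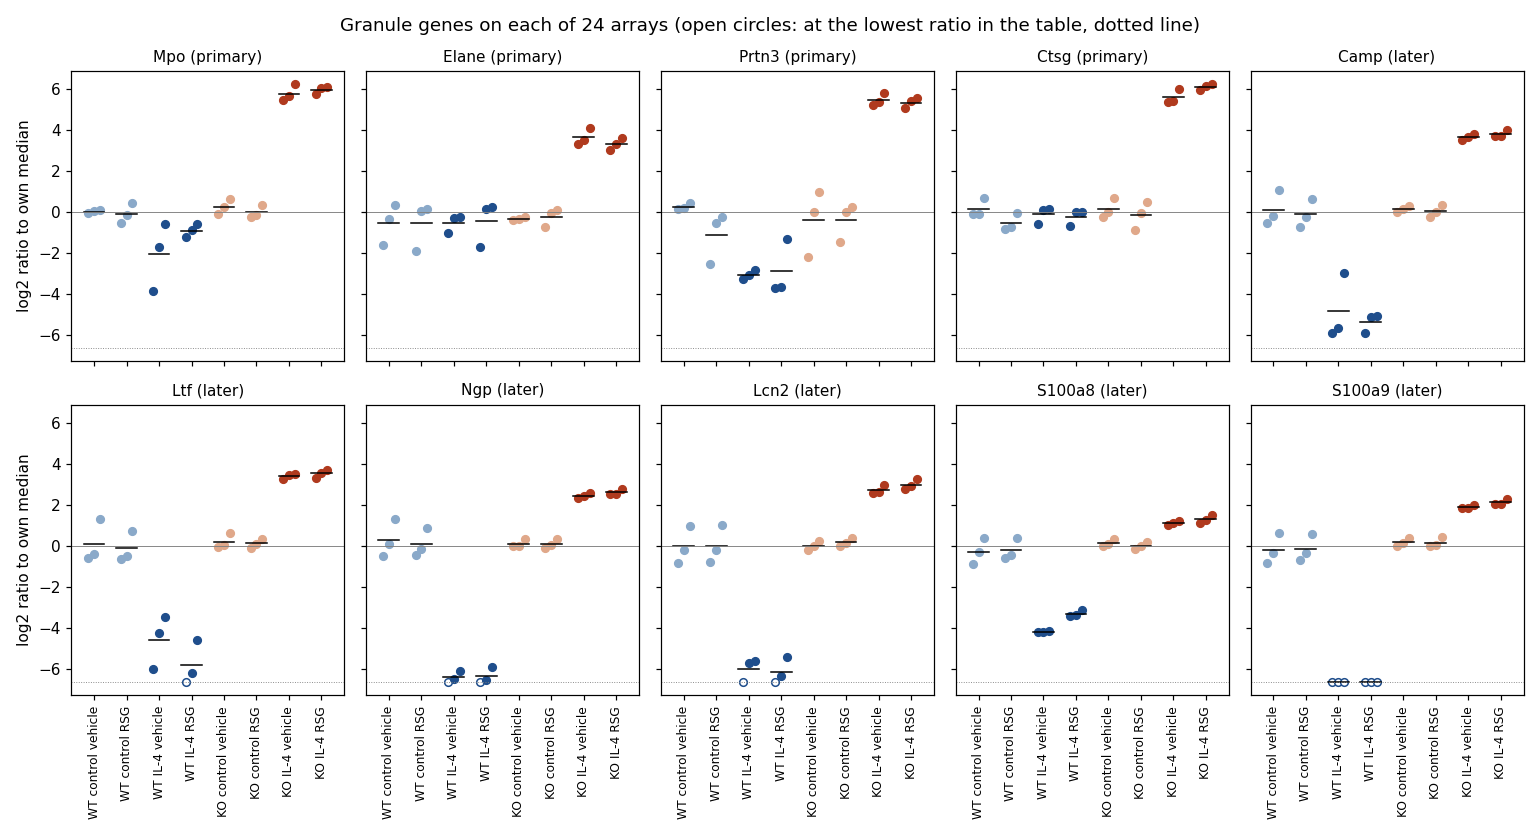
Log2 ratio to the median of the probe set (vertical axis) for each granule gene, 1 point per array and 8 groups along the horizontal axis, with black lines at group means and open circles at the lowest ratio of the table (-6.64, dotted line). All 6 KO IL-4 arrays of every gene lie above its other 18 arrays, and the WT IL-4 arrays of the later genes lie below their controls.

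Mpo encodes myeloperoxidase, the heme enzyme that makes hypochlorous acid. In KO vehicle cultures its log2 ratios were -0.12, 0.25 and 0.66 without IL-4 (mice 4, 5 and 6). With IL-4 they were 5.45, 5.64 and 6.24, a difference of 5.51 ± 0.53 (SE of the fit, 3 arrays in each group) or 45.7-fold. In WT vehicle cultures they were 0.07, -0.05 and 0.05 without IL-4 and -3.84, -1.73 and -0.57 with it, a difference of -2.07 ± 0.53. The KO groups were far apart, while in WT the nearest control and IL-4 arrays were -0.05 and -0.57, and the WT IL-4 arrays spread widely (SD 1.66). Each SE of a difference, here and below, pools the spread over all 24 arrays in 8 groups. It is therefore the same in WT and KO and does not show this wider WT spread. With RSG the Mpo arrays of KO were -0.13, -0.26 and 0.35 without IL-4 and 5.76, 6.04 and 6.09 with it. In WT with RSG they were -0.55, -0.14 and 0.45 against -0.59, -0.90 and -1.21, groups that lay close but did not overlap.

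Prtn3 encodes proteinase 3, a serine protease of the same granules. Its KO vehicle arrays were -2.21, 0.01 and 0.97 without IL-4 and 5.21, 5.37 and 5.83 with IL-4, a difference of 5.88 ± 0.74 (SE) or 58.9-fold. Its WT vehicle arrays were 0.22, 0.13 and 0.42 against -3.07, -3.28 and -2.85, a difference of -3.32 ± 0.74 or 10.0-fold lower. With vehicle both genotypes thus moved away from their controls without overlap and in opposite directions. Single control arrays also lay low, at -2.21 in KO with vehicle and at -2.52 in WT with RSG. On ratios it cannot be seen whether the WT signal of Prtn3, or of Mpo above, stood over background. With RSG in WT the ratios were -0.53, -2.52 and -0.25 without IL-4 and -3.71, -1.32 and -3.66 with it, and here mouse 2 made the groups overlap. With RSG in KO they were -0.01, -1.46 and 0.26 against 5.08, 5.39 and 5.55.

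Elane and Ctsg encode neutrophil elastase and cathepsin G, the other serine proteases of the class. Elane was -0.39, -0.34 and -0.25 in KO vehicle control cultures and 3.33, 3.53 and 4.08 with IL-4, a difference of 3.97 ± 0.57 (SE) or 15.7-fold. Ctsg was -0.25, -0.02 and 0.66 against 5.40, 5.37 and 6.00, a difference of 5.46 ± 0.35 or 44.1-fold. Neither gene separated the WT groups. For Elane the WT vehicle arrays were -1.63, -0.36 and 0.33 without and -0.25, -1.03 and -0.29 with IL-4, and for Ctsg they were -0.09, -0.10 and 0.67 without and -0.58, 0.09 and 0.14 with it. The WT differences were 0.03 ± 0.57 for Elane and -0.27 ± 0.35 for Ctsg, with 95% intervals of -1.17 to 1.22 and -1.01 to 0.46, and on ratios it cannot be seen whether their WT signal stood above background in any culture.

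The later genes differed from this pattern in WT. Camp encodes the cathelicidin antimicrobial peptide. Its WT vehicle arrays were -0.54, -0.22 and 1.06 without IL-4 and -5.88, -2.96 and -5.66 with IL-4, a difference of -4.94 ± 0.57 (SE) or 30.6-fold lower. Its KO vehicle arrays were 0.00, 0.15 and 0.30 against 3.68, 3.53 and 3.80, a difference of 3.52 ± 0.57 or 11.5-fold. Mouse 2 kept the highest of the WT IL-4 ratios, and the WT groups still did not overlap. Ltf, which encodes the iron-binding protein lactoferrin, was -0.61, -0.39 and 1.33 in WT vehicle controls and -6.02, -3.47 and -4.23 with IL-4. In KO it was 0.05, -0.05 and 0.61 against 3.47, 3.26 and 3.52, so the differences were -4.69 ± 0.61 in WT and 3.21 ± 0.61 in KO.

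Ngp, a cathelicidin-related granule protein, and Lcn2, the lipocalin that binds bacterial siderophores, reached the lowest ratio of the table in some WT IL-4 cultures, so their WT folds are bounds. Ngp was -0.50, 0.09 and 1.29 in WT vehicle controls and -6.51, -6.64 and -6.10 with IL-4, where mouse 2 was at the lowest ratio, at least 105-fold lower. Lcn2 was -0.81, -0.23 and 0.99 against -6.64, -5.74 and -5.63, where mouse 1 was at the lowest ratio, at least 63.3-fold lower. No WT IL-4 array of either gene came near a control array. In KO, Ngp was -0.03, -0.02 and 0.35 without and 2.43, 2.32 and 2.57 with IL-4 (difference 2.34 ± 0.37, SE), and Lcn2 was 0.00, -0.19 and 0.21 against 2.59, 2.61 and 2.94 (difference 2.71 ± 0.45).

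S100a8 and S100a9, the calprotectin subunits, are neighbours on chromosome 3. S100a9 was -0.86, -0.35 and 0.61 in WT vehicle controls, and all 3 WT IL-4 vehicle arrays and all 3 WT IL-4 RSG arrays were at the lowest ratio, -6.64, at least 87.3-fold lower with vehicle. S100a8 was -0.90, -0.32 and 0.37 without and -4.15, -4.23 and -4.20 with IL-4 in WT vehicle cultures, a difference of -3.91 ± 0.26 (SE) or 15.0-fold lower. The WT IL-4 arrays of S100a8 stayed above the lowest ratio and lay within 0.1 of each other. In KO vehicle cultures S100a8 was 0.01, 0.11 and 0.31 against 1.02, 1.13 and 1.20, and S100a9 was -0.02, 0.15 and 0.37 against 1.86, 1.83 and 2.00. These KO differences, 0.97 ± 0.26 and 1.73 ± 0.30, were the smallest of the 10 genes in KO vehicle cultures, and no array overlapped. The S100a8 probe set has a suffix that marks probes shared by several transcripts.

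With RSG the later genes were also separate from their controls in both genotypes. In WT RSG cultures Camp was -0.22, -0.74 and 0.63 without IL-4 and -5.14, -5.05 and -5.91 with it, and Ltf was -0.47, -0.63 and 0.74 against -6.64, -4.62 and -6.19. Ngp was -0.15, -0.43 and 0.88 against -6.64, -5.93 and -6.53, and Lcn2 was -0.20, -0.81 and 1.00 against -6.64, -5.43 and -6.37. For each of Ltf, Ngp and Lcn2 the RSG array of mouse 1 was at the lowest ratio, and none of the IL-4 arrays overlapped a control. In KO RSG cultures the IL-4 arrays were 3.72, 4.02 and 3.71 for Camp, 3.54, 3.72 and 3.33 for Ltf, 2.52, 2.76 and 2.55 for Ngp, and 2.79, 3.26 and 2.90 for Lcn2. The KO RSG controls of these genes lay between -0.26 and 0.38, below all of these arrays. Elane was 3.03, 3.30 and 3.62 and Ctsg 5.97, 6.25 and 6.13 in KO IL-4 RSG cultures.

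**Figure D2:**
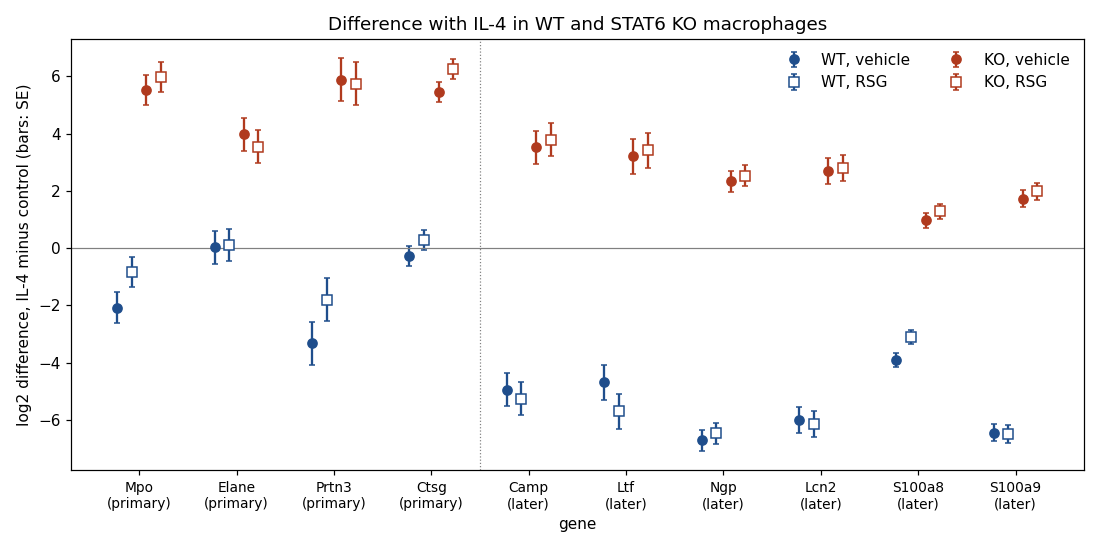
Log2 difference between IL-4 and control cultures (vertical axis, bars are the SE of the fit over 24 arrays) for each gene, in WT (blue) and KO (red), with vehicle (filled circles) and RSG (open squares); WT values of Ltf, Ngp, Lcn2 and S100a9 include arrays at the lowest ratio and are bounds. KO differences run from 0.97 to 6.26, and WT differences from -6.71 to 0.30.

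Counted over the set, 10 of 10 genes were higher with IL-4 in KO vehicle cultures by at least 1.5-fold without overlap, beside 7.69% of all 45037 probe sets, and 10 of 10 were higher in KO RSG cultures, beside 7.32%. In WT, 8 of 10 were lower with vehicle, beside 8.83% of probe sets, and 7 of 10 with RSG, beside 8.97%. The genes were chosen for these differences, so nothing is read from these shares. Median differences with IL-4 in vehicle cultures were 5.49 (primary) and 2.52 (later) in KO, and -1.17 (primary) and -5.46 (later) in WT, where all probe sets had medians of -0.14 in KO and 0.09 in WT. With RSG they were 5.86 and 2.67 in KO and -0.36 and -5.92 in WT. The WT medians of the later genes rest in part on arrays at the lowest ratio and are bounds. Leaving out mouse 3 from the WT control vehicle group moved the WT vehicle medians to -1.04 and -4.97. In whole cultures, fewer cells of a type and less RNA per cell cannot be told apart.

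Averaged over each class and relative to their medians, the primary genes lay above the later genes with IL-4 in both genotypes. The primary mean minus the later mean on each array was 4.04, 3.46 and 4.52 in WT IL-4 vehicle cultures and 2.34, 2.53 and 2.87 in KO IL-4 vehicle cultures. Without IL-4 it was 0.35, 0.14 and -0.58 in WT and -0.74, -0.05 and 0.15 in KO, so control arrays lay on either side of 0 and all IL-4 arrays above it. With RSG the group means were 4.49 ± 0.42 (SD, n = 3) in WT IL-4 cultures and 2.46 ± 0.22 in KO IL-4 cultures. In WT the gap came with later genes far below their medians, from -5.97 to -4.95 on average, and primary genes between -1.94 and -0.89. The WT IL-4 cultures held 5 later gene values at the lowest ratio with vehicle and 6 with RSG, so the WT gaps are lower bounds. The WT primary averages include Elane and Ctsg, whose WT groups did not separate. For none of the 4 primary genes can the WT signal be shown to stand above background. In KO both classes were above, with primary averages from 4.85 to 5.54 and later averages from 2.45 to 2.67. Single genes crossed this order. Elane averaged 3.65 in KO IL-4 vehicle and 3.32 in KO IL-4 RSG cultures, below Camp at 3.67 and 3.82.

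**Figure D3:**
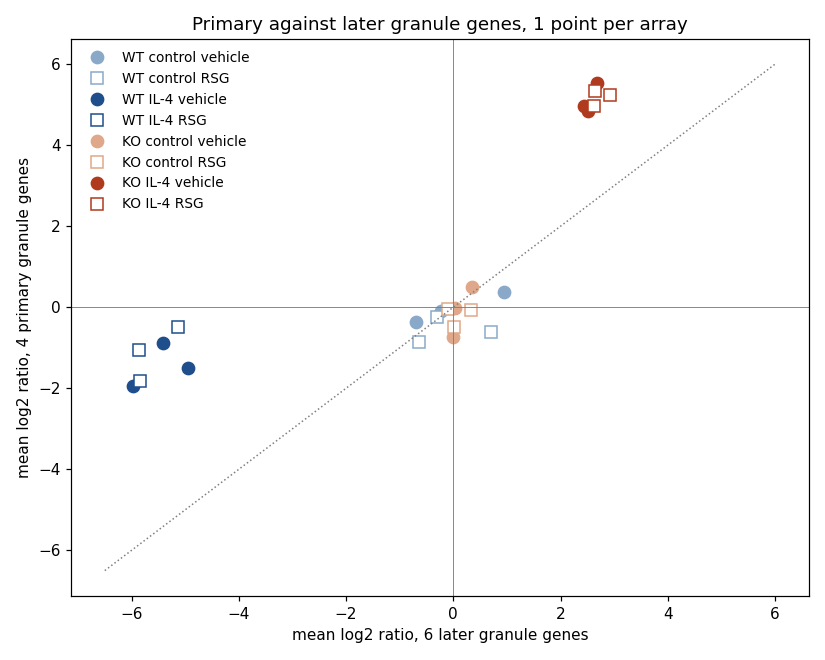
Mean log2 ratio of the 4 primary genes (vertical axis) against that of the 6 later genes (horizontal axis), 1 point per array, circles for vehicle and open squares for RSG, with a dotted line where both are equal. WT IL-4 arrays lie far to the left with primary means from -1.94 to -0.49, KO IL-4 arrays lie at the upper right, and the 12 control arrays lie near 0.

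With IL-4 present, KO cultures were thus above WT cultures for 10 of 10 genes without overlap, beside 9.78% of probe sets with vehicle and 8.93% with RSG. With vehicle the KO minus WT differences of the primary genes were 7.83 ± 0.53 (SE) for Mpo, 8.54 ± 0.74 for Prtn3, 5.71 ± 0.35 for Ctsg and 4.17 ± 0.57 for Elane. Those of the later genes ran from 5.31 ± 0.26 for S100a8 to at least 8.86 for Ngp. Medians were 6.77 for the primary and 8.52 for the later class against -0.25 over all probe sets, and the later median is a lower bound. The class with the wider distance here, the later genes, was the one with the smaller IL-4 difference in KO. The IL-4 differences within WT and these KO minus WT differences share the WT IL-4 arrays.

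Over the 8 groups, both KO IL-4 groups came last in the order of levels for all 10 genes, and for 9 of them these neighbouring groups overlapped; S100a9 was the exception, with KO IL-4 RSG arrays of 2.04, 2.26 and 2.06 just above the vehicle arrays. Neighbours in the order among the 4 control groups overlapped for all 10 genes. For the 6 later genes, both WT IL-4 groups came first and were separate from all control groups. For Elane and Ctsg the WT IL-4 groups stood among the controls. In both WT control groups mouse 3 had the highest array for all 6 later genes, and its control vehicle array also held the highest mean of the WT control vehicle arrays for the other later granule genes (0.55, against -0.71 and -0.54) and for eosinophil (1.09, against -0.93 and -0.22) and mast cell markers (0.47, against -1.43 and -1.26).

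Without IL-4, no granule gene differed detectably between the genotypes. Between KO and WT control vehicle cultures limma called 0 of 10 genes (adjusted p under 0.05 and a change of 1.5-fold or more), beside 0.109% of all probe sets, with 0 at an unadjusted p under 0.05. The differences ran from -0.66 (Prtn3, 95% interval -2.23 to 0.90) to 0.43 (S100a8, -0.11 to 0.97). With RSG 0 of 10 were called, beside 0.0999%, again with 0 at an unadjusted p under 0.05, and differences ran from -0.02 (Ngp) to 0.70 (Prtn3, -0.87 to 2.27). The intervals of Prtn3 leave room for differences of over 4-fold, while those of S100a8 reach 0.97 at most.

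RSG activates the nuclear receptor PPARγ, and the study asked how far the response to RSG depends on IL-4 and STAT6. No granule gene passed the test in any of the 4 settings, beside 0.118% of probe sets called in WT control, 0.688% in WT IL-4, 0.138% in KO control and 0.515% in KO IL-4 cultures. At an unadjusted limma p under 0.05 there were 2 genes in WT IL-4 cultures, S100a8 and Mpo, and 0 elsewhere. No share of all probe sets at that threshold is given, so nothing is read from this count. The test named in the study's methods gave 0 adjusted calls in all 4 settings. S100a8 was -3.44, -3.15 and -3.37 with RSG against -4.15, -4.23 and -4.20 with vehicle in WT IL-4 cultures, groups that do not overlap, as for 3.56% of probe sets higher by 1.5-fold. Its difference was 0.87 ± 0.26 (SE, 95% interval 0.33 to 1.42), with a limma p of 0.00339 and a Benjamini-Hochberg adjusted p of 0.182. Over 8 alternative settings that difference ran from 0.75 to 0.96 and its adjusted p from 0.0942 to 0.646.

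Mpo was the other gene, with a difference of 1.15 ± 0.53 (SE) and a limma adjusted p of 0.535, and its arrays overlapped. In KO IL-4 cultures the RSG differences ran from -0.33 (Elane, 95% interval -1.53 to 0.86) to 0.53 (Ctsg, -0.21 to 1.27). S100a8 there was 1.11, 1.49 and 1.28 with RSG against 1.02, 1.13 and 1.20, a difference of 0.17 with an interval of -0.37 to 0.72. For S100a9 in WT IL-4 cultures no difference can be given, since all 6 arrays were at the lowest ratio, so its missing call there is not informative. Ltf, Ngp and Lcn2 also had WT IL-4 arrays at the lowest ratio, where a fall with RSG could not register in full. In WT control cultures Prtn3 was lower with RSG without overlap by -1.36 (-2.92 to 0.21), beside 3.03% of probe sets lower in that way, with a limma adjusted p of 0.738.

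**Figure D4:**
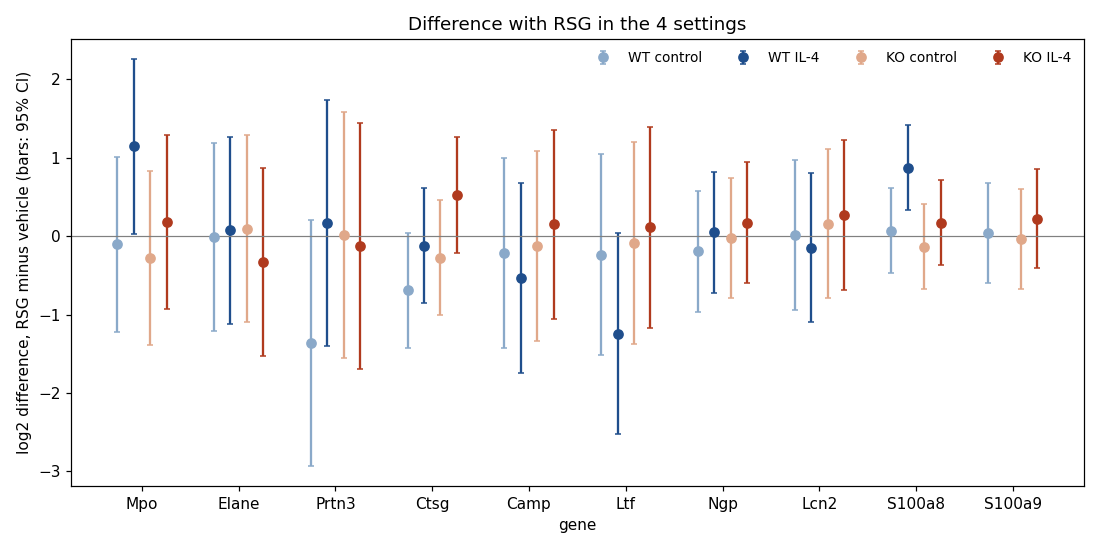
Log2 difference between RSG and vehicle cultures (vertical axis, bars are 95% intervals of the limma fit) for each gene in WT control, WT IL-4, KO control and KO IL-4 cultures; S100a9 in WT IL-4 cultures is left out because all its arrays were at the lowest ratio. Among the intervals shown, those of Mpo and S100a8 in WT IL-4 cultures lie above 0, and neither gene passed the adjusted test.

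The interaction of IL-4 with RSG was called for 0 of 10 genes in WT, beside 0.0289% of probe sets, and for 0 of 10 in KO, beside 0.0711%. The WT count is not informative for S100a9, whose WT IL-4 arrays were all at the lowest ratio. It is limited for Ltf, Ngp and Lcn2, which had some WT IL-4 arrays there. At an unadjusted p under 0.05 there was 1 gene in WT, S100a8, and 0 in KO, again without a share of all probe sets, so nothing is read from it. The S100a8 interaction in WT was 0.80 ± 0.36 (SE) with a limma adjusted p of 0.798, and that in KO was 0.31 ± 0.36. The widest SE belonged to Prtn3, at 1.53 ± 1.05 in WT, the largest value there, and -0.14 ± 1.05 in KO. The largest value in KO was that of Ctsg, 0.80 ± 0.495, not called. Over all alternatives and all 8 tested comparisons no granule gene was called.

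Other genes of the granule program were counted from lists that had been drawn up with earlier results known. Calls followed the rule above (adjusted p under 0.05 with limma, 1.5-fold or more), which 7.01% of all probe sets passed upwards and 5.94% downwards with IL-4 in WT vehicle cultures, and 4.25% and 7.26% in KO. Of 13 other later granule genes measured, 9 rose and 0 fell in KO, while 7 fell and 2 rose in WT, with medians of 2.59 and -2.69. Stfa3, a stefin, rose by 5.50 ± 1.06 (SE, limma adjusted p = 0.00147) and Hp, which encodes haptoglobin, by 4.84 ± 0.45 (1.26e-06) in KO. In WT, Olfm4, an olfactomedin of a neutrophil subset, fell by 5.26 ± 0.90 (0.000409) and Stfa2l1 fell by 4.14 ± 0.85 (0.00208), whereas the acute phase gene Orm1 rose by 4.20 ± 0.91 (0.00303) and the protease gene Adam8 by 1.63 ± 0.15 (4.47e-07). Itgb2l, the one gene of that list below its control in KO, was at -1.48 ± 0.94 and was not called. Without 1 KO mouse the KO count was 5 for each mouse left out, and without mouse 3 in the WT control vehicle group the WT count of falls was 5.

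Other genes of primary granules and lysosomes were divided. Of 8 measured, 2 rose and 2 fell with IL-4 in KO, and 1 rose and 1 fell in WT, with medians of -0.25 in KO and -0.10 in WT. Ms4a3, a membrane protein of granulocyte and monocyte progenitors, rose by 3.94 ± 0.37 (SE, limma adjusted p = 1.14e-06) in KO, and the ficolin gene Fcnb rose by 1.81 ± 0.29 (0.000314). The lysosomal hydrolase gene Gusb fell by 0.73 ± 0.12 (0.000413), a count of falls that went from 2 to 0 when arrays were centred on their medians. Lyz1 was at -1.04 ± 0.39 in KO, not called, and fell in WT (adjusted p = 0.0109). Rnase2a, a ribonuclease of the eosinophil family, rose by 9.78 ± 1.56 (0.000204) in WT and was at 2.55 ± 1.56 in KO, not called.

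The next list held genes that process, pack or inhibit granule proteins. Of 8 measured, 4 rose and 1 fell with IL-4 in KO, and 1 rose and 0 fell in WT. In KO, Serpinb1a, an inhibitor of elastase, cathepsin G and proteinase 3, rose by 4.12 ± 0.47 (SE, limma adjusted p = 9.05e-06), and Slpi, a secreted inhibitor of elastase and cathepsin G, by 2.64 ± 0.30 (9.87e-06). Serpinb6a fell by 0.68 ± 0.11 (0.000216), a call lost with array centring and with quantile normalization, and Lyst was at -0.30 ± 0.36, not called. In WT the proteoglycan core gene Srgn rose by 1.06 ± 0.11 (1.42e-06) and Serpinb1a was at 0.88 ± 0.47, not called. Slpi was at -0.74 ± 0.30 in WT, and Ctsc, the protease that activates granule serine proteases, was at -0.51 ± 0.15, under 1.5-fold, and neither was called.

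Of 5 subunits of the NADPH oxidase, 0 were called in KO by limma, where Rac2 passed the p threshold at 0.35 ± 0.10 (SE, adjusted p = 0.024) but not 1.5-fold. In WT, Cybb, the catalytic subunit, fell by 1.10 ± 0.15 (limma adjusted p = 5.08e-05), and Ncf4 rose by 0.61 ± 0.12 (0.00172), a call lost with array centring. Among 12 regulators of granulocyte growth, 1 rose and 2 fell in KO and 3 rose and 2 fell in WT. Cebpa fell by 0.83 ± 0.12 (9.84e-05) and Cebpd by 0.77 ± 0.19 (0.011) in KO, where the progenitor factors Myb and Gfi1 were at 3.62 ± 1.28 and 3.15 ± 1.19, not called. In WT, Klf4 rose by 1.81 ± 0.36 (0.00153), Csf3r, the receptor for the granulocyte growth factor G-CSF, fell by 1.65 ± 0.17 (2e-06), and Irf8 fell by 1.00 ± 0.15 (0.000105). Of 8 receptors for granule products, the formyl peptide receptor Fpr2 rose by 3.92 ± 0.46 (1.2e-05) in KO as the 1 call there, and fell by 2.85 ± 0.46 (0.000199) in WT, where 4 others rose, Cd36 among them by 1.19 ± 0.13 (2.3e-06).

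Markers of whole cell types rose on the same KO arrays. Of 8 mature neutrophil markers, which share Mmp8, Mmp9, Cd177 and Itgb2l with the later granule list and Csf3r with the regulators, 6 rose and 0 fell in KO, and 0 rose and 4 fell in WT. Il1r2 rose by 3.86 ± 0.75 (SE, limma adjusted p = 0.00151) and Cxcr2 by 3.45 ± 0.69 (0.0019) in KO, and Padi4 fell by 3.91 ± 0.66 (0.000356) in WT. Without mouse 3 in the WT control vehicle group, 2 of these markers fell in WT. The list mean lay between 1.59 and 2.01 on KO IL-4 vehicle arrays and between -0.65 and 0.38 on KO control vehicle arrays. Of 10 progenitor markers 4 rose and 1 fell in KO (0 with array centring) and 0 rose and 1 fell in WT. These markers share Ms4a3 with the other primary granule genes and Myb and Gfi1, among others, with the regulators. Of 6 monocyte markers 4 rose and 0 fell in KO and 2 rose and 3 fell in WT.

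Markers of other lineages were higher as well on the same KO arrays. With IL-4 in KO, 9 of 12 genes that mark mast cells and basophils rose, as did 8 of 10 for lymphocytes and 3 of 6 for eosinophils, and in WT the rises were 1, 1 and 0 (0, 3 and 0 without mouse 3 in the control vehicle group). Their list means on KO IL-4 vehicle arrays ran from 4.07 to 4.71, from 3.51 to 3.87 and from 2.34 to 2.56, and on KO control vehicle arrays from -1.16 to -0.34, from -1.56 to -0.98 and from -0.63 to 0.03. In WT the falls with IL-4 were 0, 2 and 1. Of 11 macrophage markers 1 rose and 2 fell in KO (1 with array centring), with a list mean between -0.02 and 0.12 on KO IL-4 vehicle arrays, and 0 rose and 5 fell in WT, with a mean between -0.63 and -0.50. The macrophage receptor Csf1r was at -0.25 ± 0.10 in KO and 0.09 ± 0.10 in WT, not called. The part of these cell types in the granule gene differences was not tested, and ratios do not show whether a defining marker was at background.

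**Figure D5:**
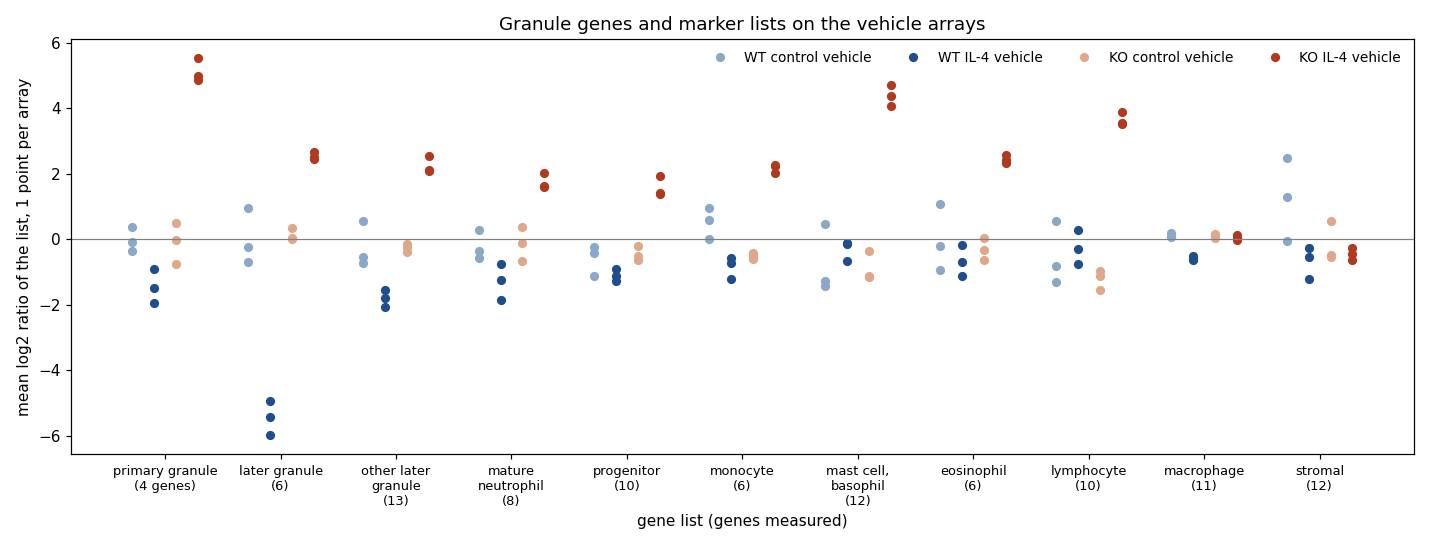
Mean log2 ratio of each gene list (vertical axis) on the vehicle arrays, 1 point per array, for the granule genes and for marker lists with the number of genes measured in brackets. On KO IL-4 arrays the granule, progenitor, monocyte, mast cell, eosinophil and lymphocyte lists lie above their controls, the macrophage list lies between -0.02 and 0.12, and the stromal list of WT control arrays spreads from -0.06 to 2.49.

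Stromal markers varied between cultures of the same group. Their mean was 2.49 in mouse 2 (WT control vehicle) and 4.77 in mouse 6 (KO control RSG), and of 12 markers 0 rose and 3 fell with IL-4 in WT and 1, Thy1, rose in KO. Without these 2 arrays the WT vehicle medians were -1.26 for the primary and -5.59 for the later genes, and the KO RSG medians were 5.98 and 2.61.

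The genes whose profile over the 24 arrays was closest to the mean of each class were found among 18183 genes by the mean absolute log2 difference. For the primary class these were Plac8 (0.39), Ppbp (0.44), Ifitm1 (0.48), Cd69 (0.51), Klrd1 (0.54) and Ms4a4b (0.67). For the later class they were F13a1 (0.55), Olfm4 (0.57), Wfdc21 (0.77), Stfa2l1 (0.84), Hp (0.88) and Ifi27l2a (0.90). Olfm4, Wfdc21, Stfa2l1 and Hp belong to the list of other later granule genes, while the primary class had no granule gene among its 6, and Klrd1 is a lymphocyte and F13a1 a monocyte marker of the lists above. The members' own distances from the mean of their class ran from 0.43 (Mpo) to 0.87 (Elane) in the primary class and from 0.26 (Lcn2) to 0.88 (S100a8) in the later class. Plac8 was thus closer to the primary mean than any primary member, and all 6 genes named for that class were closer than Elane and Prtn3 (0.85). In the later class every member except S100a8 was closer than F13a1.

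Chromosomal neighbours were examined as the 3 nearest named genes on each side of every member, 48 other genes in all. With IL-4 in KO vehicle cultures 10 rose and 1 fell, beside 4.25% and 7.26% of all probe sets. In WT vehicle cultures 5 rose and 1 fell, beside 7.01% and 5.94%. The neighbours of Ctsg, mast cell protease and granzyme genes, rose in KO for 6 of 6, among them Mcpt8 by 9.28 and Gzmg by 6.66. Next to Mpo 3 of 6 rose, among them Epx, the eosinophil peroxidase gene, by 3.59. Epx and the neighbours Mcpt2, Mcpt4 and Mcpt8 of Ctsg also belong to the eosinophil and mast cell lists above. The genes around Camp, Ngp and Lcn2 gave 0 calls of 6 each in KO, and those around S100a8 and S100a9, S100a6 included, gave 0 of 5 each. Elane and Prtn3 lie side by side, and their only called neighbour in KO, Med16, fell by 0.61.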

How the data were processed

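Total RNA of 24 cultures was hybridised to 1-colour Affymetrix mouse whole-genome arrays. The authors deposited linear ratios, made with GC-RMA in GeneSpring, scaling each array to its 50th percentile and each probe set to its median over the arrays; a further division by the vehicle control, named in their methods, is not carried by the deposited ratios. GCOS and GCRMA are named in the processing notes of the submitters, with no version. Of 45037 probe sets tested, 38889 (86.35%) had a median of 1 within 0.001. Background correction cannot be varied on ratios, the lowest of which was 0.01 (log2 -6.64): 11 of 240 granule gene values, in 4 genes, were there, and signal over background is unknown.

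Ratios were taken to log2 and fitted with limma 3.58.1 in R 4.3.3 (lmFit, eBayes without a variance trend, since the mean of such ratios is no level) over all 24 arrays in 8 groups, 64 control probe sets left out, leaving 16 degrees of freedom, to which eBayes added 1.35. A call required a two-sided Benjamini-Hochberg adjusted p under 0.05 over all probe sets and 1.5-fold. The number of arrays limits the precision, and the SE of a difference is that of the fit. The methods' t-test was an alternative. Other alternatives were array centring, quantile normalization, a floor of 0.05, a variance trend, probe sets with a median of 1, the compared arrays alone, mouse as a block, and leaving out each mouse or the arrays that stand apart; those for the list counts were chosen after seeing the data. On simulated data for the RSG response in WT IL-4 cultures over 45037 probe sets, 6%, 24%, 58% and 62% of 50 probe sets each changed 1.5-fold, 2-fold, 4-fold and 8-fold were called, and 2 of 77 calls were false.

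The labels give the mouse of each array, so the numbers pair arrays within a genotype; same-mouse deviations had a mean correlation of 0.011 (-0.023 to 0.046 over 36 pairs). Genes were named from the platform annotation (34945 probe sets with 1 symbol). A list gene was represented by the probe set chosen by its name alone, and of each list up to 2 genes in each direction with the largest differences were named by rule; others named, such as Ctsc, Fcnb, Irf8 and Csf1r, were chosen after their values were seen. Neighbours and promoters came from RefSeq tables of GRCm38.p6; all 10 genes had a promoter. Members and lists were chosen with earlier results of these data known.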

Additional observations from a re-analysis of the deposited data

Results flagged for a closer look

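For the genes below, each mouse of KO had a higher ratio with IL-4 and each mouse of WT a lower one; the difference itself was not tested, because the genes were chosen for it, and n was 3 mice per genotype. With vehicle, the IL-4 difference in KO minus that in WT was 7.59 for Mpo and 9.20 for Prtn3 among the primary genes, and 8.46 for Camp, 7.90 for Ltf, 9.05 for Ngp, 8.69 for Lcn2, 4.88 for S100a8 and 8.18 for S100a9 among the later genes. With RSG it was 6.80 for Mpo, 9.05 for Camp, 9.11 for Ltf, 9.00 for Ngp, 8.96 for Lcn2, 4.39 for S100a8 and 8.47 for S100a9. For Mpo with RSG, WT mouse 1 differed by only -0.05, and the WT difference was -0.82 with a 95% interval of -1.93 to 0.29 that includes 0. Values of Ngp, Lcn2 and S100a9, and of Ltf with RSG, are lower bounds, since WT IL-4 arrays were at the lowest ratio. Elane and Ctsg were not lower with IL-4 in every WT mouse, and neither did Prtn3 with RSG.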

How the results depend on the processing

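No granule gene was called in any of the 8 tested comparisons under any alternative, the methods' t-test, the variance trend and mouse as a block included, and no difference with IL-4 or between genotypes with IL-4 changed sign where arrays were separate. With the replicate block as paired differences within a mouse, the median difference with IL-4 in KO vehicle cultures was 5.49 for primary and 2.52 for later genes, as without it.

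Sizes moved under other settings. With quantile normalization the primary minus later gap was 1.83 (KO IL-4 RSG) and 1.89 (KO IL-4 vehicle); the IL-4 medians in KO were 4.66 (RSG) and 4.21 (vehicle) for primary and 2.22 and 2.07 for later genes; and KO minus WT with IL-4 was 5.34 (RSG) and 5.50 (vehicle) for primary and 8.27 and 7.45 for later genes. With ratios under 0.05 set to 0.05, which raises the floor, the gap was 3.03 (WT IL-4 RSG) and 2.73 (WT IL-4 vehicle), the later IL-4 medians in WT were -4.20 (RSG) and -4.12 (vehicle), and the later KO minus WT medians were 7.12 (RSG) and 6.90 (vehicle). Without 1 mouse in turn, the later IL-4 median in WT RSG cultures ran from -6.65 to -5.30, and the KO minus WT vehicle medians from 8.19 to 8.64 (later) and from 6.20 to 7.20 (primary). The count of other later granule genes that rose was 5 in KO whichever mouse was left out, and ran from 1 to 2 in WT. Of the 56 list counts in WT and KO, 23 moved by over 1.5 times under at least 1 alternative, 22 of them counts of 5 or fewer.

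Folds against arrays at the lowest ratio are limits set by the table. With 3 mice per group, the SE of a difference ran from 0.26 (S100a8) to 0.74 (Prtn3). KO against WT was not paired, since no mouse has both genotypes, and mouse entered there as a random block (correlation 0.0114).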
